A study of Mus with 2 samples.

Results

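The 10 genes described here encode secreted guidance cues and their receptors. They are the netrins Ntn1 and Ntn4, the netrin receptors Unc5b and Unc5c, the Slit ligands Slit2 and Slit3, the roundabout receptors Robo1, Robo2 and Robo4, and the extracellular matrix protein reelin, Reln. They were chosen by symbol, and all 10 symbols were found among the 28693 features of the count tables. The data were single-cell RNA-seq of newborn mouse kidney (postnatal day 0, P0) from 2 libraries labelled Rbpj c/- ; Foxd1cre/+. Rbpj is the DNA-binding partner of the Notch receptors, c stands for its floxed allele, and Foxd1 drives Cre in the cells that give rise to the renal stroma. The series design names 4 libraries, 2 of them controls that were Rbpj c/+ ; Foxd1cre/+. Those controls are not analysed here. The values therefore describe where the genes were expressed in the mutant kidney and not what the mutation changed. By the genotype notation both libraries carried the Cre allele and 1 inactive copy of Rbpj in all cells, and the floxed copy was open to deletion in the Foxd1 lineage only. The labels do not say whether each library was 1 animal or a pool, or whether the libraries came from separate litters. The p-values therefore measure only spread between these 2 samples. The fit takes up the overall difference between the libraries. What remains is how classes vary between libraries, pooled for each gene over all classes (9 residual degrees of freedom, 10 for sub-classes).

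Netrins are laminin-related secreted proteins that attract or repel migrating cells and growing axons, and repulsion runs through receptors of the UNC5 family. Slit proteins are cleaved ligands of the ROBO receptors, and Slit2 with Robo2 is known in kidney development for holding back the nephrogenic tissue that secretes the ureteric inducer GDNF, so that a single ureteric bud forms. Robo2 is also known from the podocyte foot process, and Robo4 from vascular endothelium, where it can bind Unc5b. Reelin signals in migrating neurons through the lipoprotein receptors Vldlr and Lrp8 and the adaptor Dab1.

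In the mouse build GRCm38.p6, RefSeq places Ntn1 at chr11:68209364-68386826 and Slit3 on the same chromosome at chr11:35121456-35708507. Ntn4 lies at chr10:93641049-93745972 and Unc5b at chr10:60762594-60831581. Robo1 and Robo2 both lie on chromosome 16, at chr16:72027518-73047491 and chr16:73891976-75447443. Slit2 and Reln lie on chromosome 5, at chr5:47981291-48307735 and chr5:21884454-22344705. Unc5c lies at chr3:141465564-141834924 and Robo4 at chr9:37401902-37414023. Robo4 is the shortest of the 10 genes at 12122 bases and Robo2 the longest at 1555468 bases. The libraries count the 3′ ends of transcripts, so gene length sets no scale for the values below, and each gene is compared with itself across cells.

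The libraries held 163405630 and 135436576 unique molecular identifiers (UMIs, each standing for 1 captured transcript). Barcodes with at least 2000 UMIs and at most 10% mitochondrial UMIs were kept, and predicted doublets were removed, which left 5910 cells in replicate 1 and 4937 in replicate 2, with medians of 11716.5 and 12196 UMIs. The libraries shared 5 cell barcodes. Of all UMIs in kept cells, 39.4% and 31.9% came from cells with over 50000 UMIs each. Clustering without the 10 genes and without their pathway gave 32 clusters, and 29 of them fell into 10 classes named by marker genes. These classes included 2416 stroma-like, 2242 nephron progenitor-like, 1249 endothelial-like and 297 ureteric epithelium-like cells. Each of these 4 types carried its own marker list, whose summed level was 6806, 1355, 5900 and 1530 CPM (UMIs of a gene per 1000000 UMIs of the class in a library), and none of their own markers was at 0. The erythroid markers summed to between 528 and 3681 CPM in these 4 types. Rbpj itself stood at 25.5 and 24.3 CPM in stroma-like cells, while progenitors of the nephron had 62.0 and 58.4 CPM and endothelial-like cells 43.2 and 44.6 CPM. The labels do not say which exons are floxed, so 3′ counts do not check the deletion. One class needs a caution. The 367 cells assigned by mural markers were mostly a cluster of 308 cells led by Tagln and Pcp4, in which the podocyte markers summed to 1740 CPM, against 43.2 CPM in stroma-like cells. These cells are called the Tagln-led cluster here, and the other 59 cells the Myh11-led cluster.

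Among the 4 main types and the podocytes, most of the 10 genes stood far higher in 1 or 2 types than in the rest. Ntn1 and Reln were stromal, Robo4 was endothelial, and Unc5b was endothelial and to a lesser degree ureteric and podocyte. Slit2 was highest in ureteric epithelium, and Robo2 and Unc5c were highest in podocytes and nephron progenitors. In the comparison of stroma-like with nephron progenitor-like cells, 6 of the 10 genes passed the threshold of an adjusted p under 0.05, where 57.7% of all genes tested passed. They were 3 higher and 3 lower in stroma-like cells, beside 28.5% and 29.2% of all genes. Stroma-like against endothelial-like cells gave 9 (6 higher, 3 lower) beside 52.5% of all genes (25.7% and 26.8%). Stroma-like against ureteric epithelium-like cells gave 8 (6 higher, 2 lower) beside 58.9% (28.6% and 30.2%). Nephron progenitor-like against endothelial-like cells gave 9 (5 higher, 4 lower) beside 63.7% (32.5% and 31.2%). Nephron progenitor-like against ureteric epithelium-like cells gave 7 (5 higher, 2 lower) beside 57.4% (28.3% and 29.1%). Endothelial-like against ureteric epithelium-like cells gave 8 (7 higher, 1 lower) beside 59% (29.5% in each direction). With 10 genes, counts of 6 to 9 lay near or somewhat above what the share of all genes gives, so the counts alone say little about these genes. The median absolute log2 difference of the 10 genes ran from 1.44 in the first of these comparisons to 3.32 in the second, and over all 15214 genes tested from 0.54 to 0.73. The classes were built from other genes of the same cells, so each p describes the spread between libraries for classes taken as given. The 6 comparisons reuse the same class sums and are not independent.

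**Figure D1:**
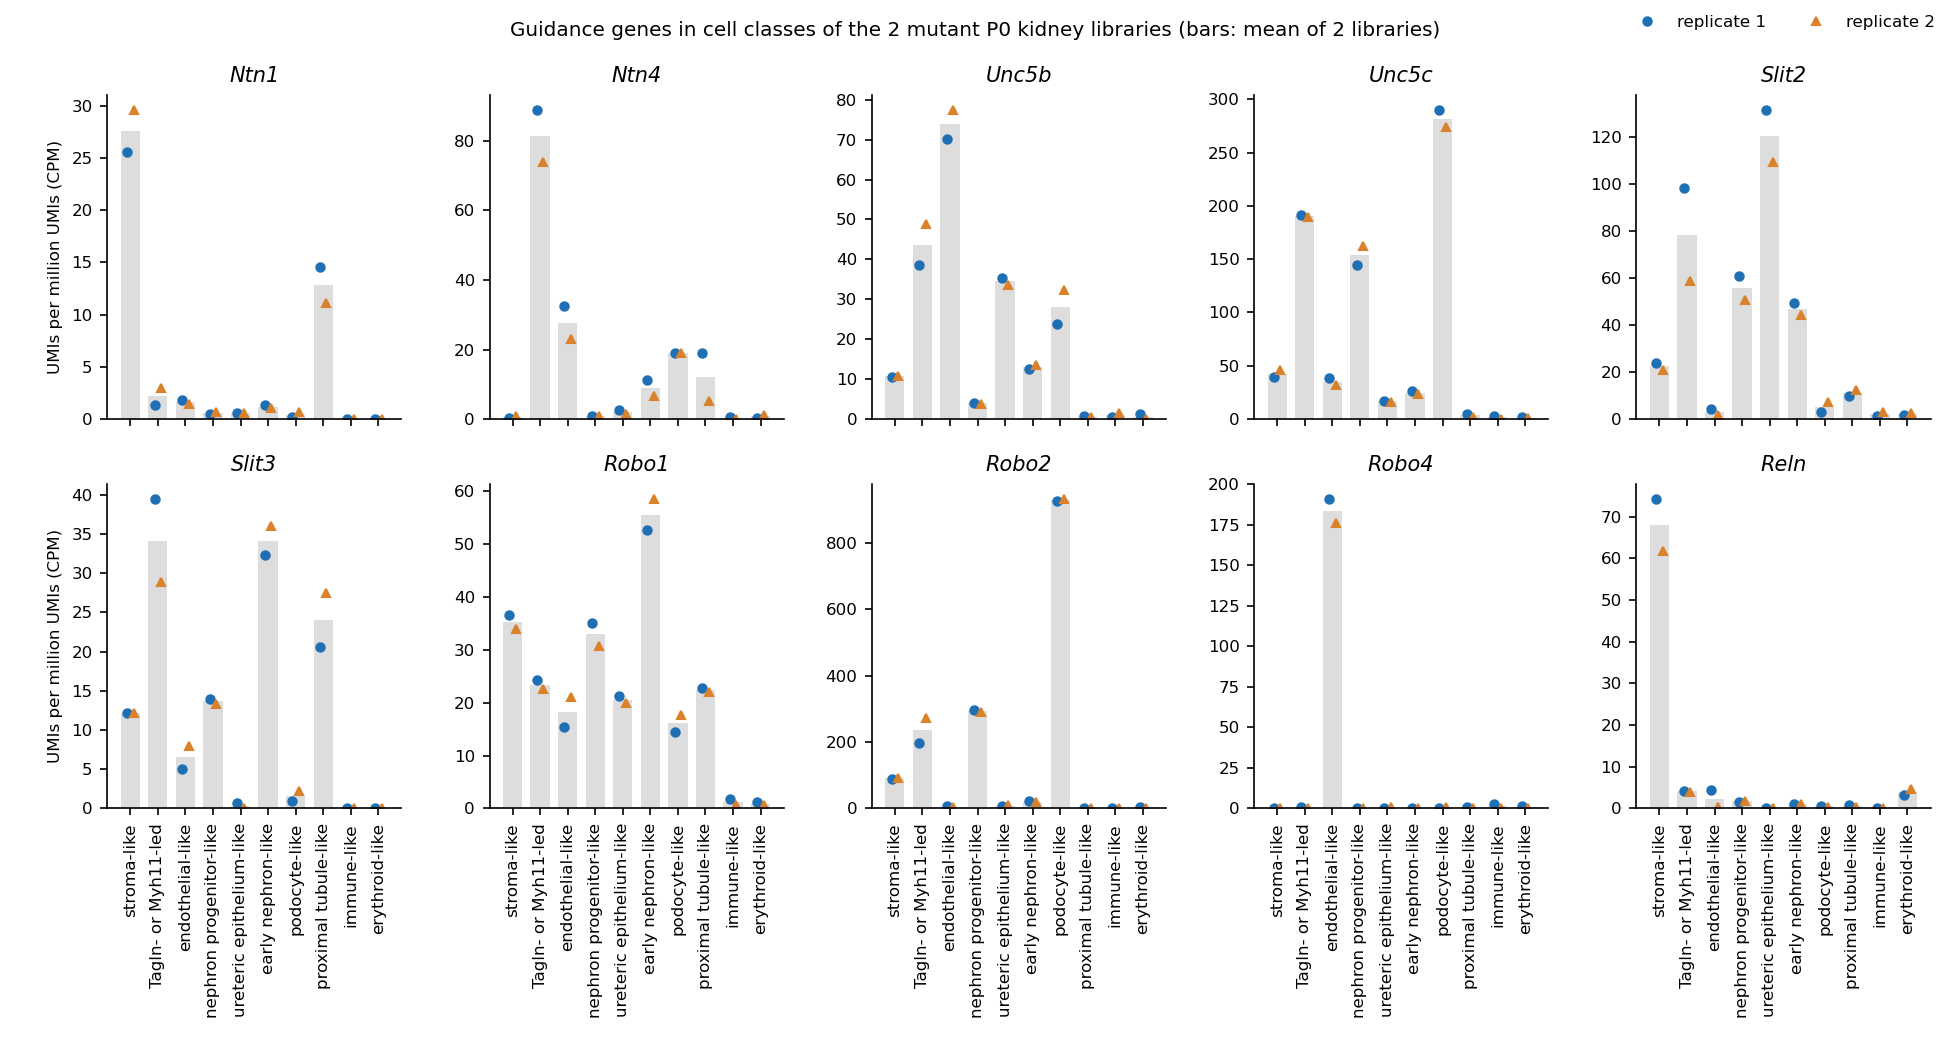
Levels of the 10 genes in 10 cell classes. Each panel is 1 gene, the y axis is CPM on a scale that starts at 0 and differs between panels, grey bars are means of the 2 libraries, and circles and triangles are replicates 1 and 2. Reln and Robo4 each stood above 60 CPM in 1 class and below 5 CPM in the other 9, whereas Robo1 lay between 14.5 and 58.4 CPM in 8 classes.

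**Figure D2:**
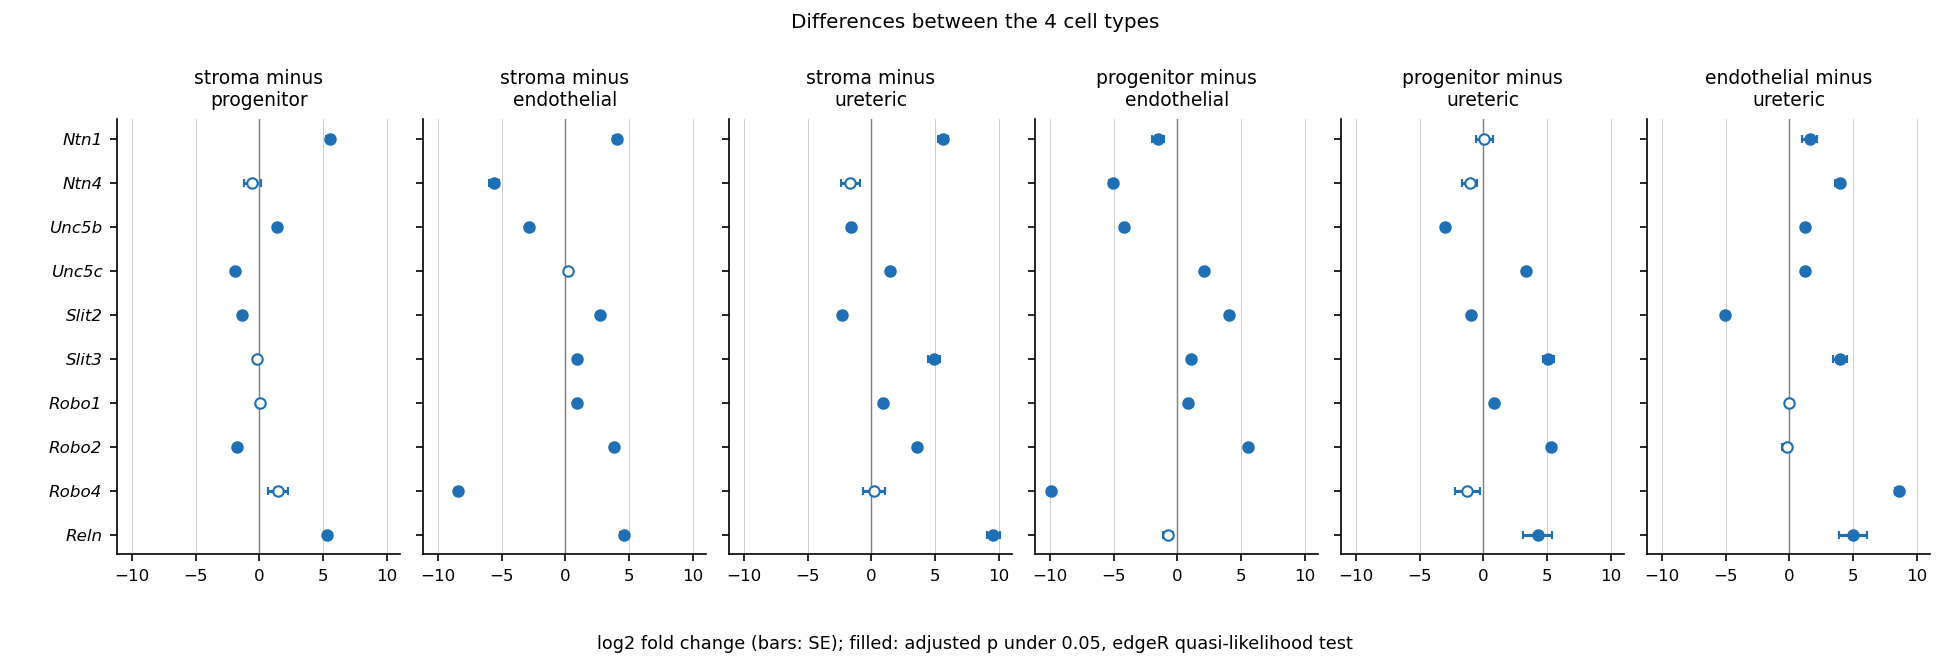
Differences of the 10 genes between pairs of the 4 main cell types. The x axis is the fitted log2 fold change with its standard error, a value above 0 means higher in the first type, and filled points passed an adjusted p of 0.05 by edgeR's quasi-likelihood test. Robo4 differed by -9.90, -8.42 and 8.62 in the 3 comparisons with endothelial-like cells, and Reln by 9.57 between stroma-like and ureteric epithelium-like cells.

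Among the ligands, Ntn1, the best studied netrin, was a stromal transcript. It stood at 25.5 CPM in replicate 1 and 29.6 CPM in replicate 2 in stroma-like cells. Proximal tubule-like cells followed with 14.5 and 11.1 CPM, and no other named class exceeded 2.99 CPM in either library. Cells outside the named classes held 176 of the 1172 Ntn1 UMIs, and a cluster of 411 of them had a mean of 9.97 CPM. The stroma-like level was higher than that of the proximal tubule-like cells by 1.03 ± 0.22 (SE) on the log2 scale, with an adjusted p of 0.00036. Against nephron progenitor-like cells, with 0.447 and 0.702 CPM, stroma-like cells were higher by 5.55 ± 0.29 (SE, adjusted p = 2.3e-12). The difference from endothelial-like cells was 4.03 ± 0.30 (SE, adjusted p = 4.8e-10) and that from ureteric epithelium-like cells 5.63 ± 0.38 (SE, adjusted p = 1.1e-10). To compare cells at equal depth, each cell was thinned to 4600 UMIs and shallower cells were left out, 84 and 97 of the stroma-like, 30 and 33 of the nephron progenitor-like, 127 and 84 of the endothelial-like and 1 and 4 of the ureteric epithelium-like cells. Ntn1 was then seen in 9.60% ± 1.10 (SD, n = 2) of stroma-like cells and in 0.366% ± 0.124 of nephron progenitor-like cells. Without thinning, the share of stroma-like cells was 15.2%. A minority of stromal cells had the transcript at this depth. Among the types with little Ntn1, endothelial-like cells (1.79 and 1.40 CPM, 27 UMIs) exceeded nephron progenitor-like cells (28 UMIs; nephron progenitor-like minus endothelial-like, -1.52 ± 0.45, SE, adjusted p = 0.0059). Without replicate 1 that difference was -0.93. It was -0.61 (adjusted p = 0.55) with thinned cells and 0.090 (adjusted p = 0.95) at a mitochondrial limit of 5%.

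The stroma was clustered again, without cell-cycle genes and without the guidance genes, and its sub-clusters were named by markers. They comprised 582 cortical stroma-like, 275 medullary stroma-like, 947 mesangial-like (2 sub-clusters, led by Itga8 and by Igfbp3) and 119 adventitial fibroblast-like cells, the last of which carry markers of the connective tissue sheath of vessels. The mesangial-like name is uncertain. The Itga8-led sub-cluster (528 cells) reached a marker level of 0.203, where 0.2 was needed. In the Igfbp3-led one (419 cells), the leading genes included 1 mesangial marker, Agtr1a. They also included Igfbp3, listed as an interstitial stroma marker, and Clca3a1, listed as a cortical one. Of the 10 genes, 8 passed the threshold between cortical and medullary stroma-like cells, 4 higher and 4 lower in the cortex, against 24.3% of all genes tested (11.7% higher and 12.6% lower). Ntn1, Reln, Robo1 and Robo2 were higher in cortical stroma-like cells, and Ntn4, Unc5b, Unc5c and Slit3 were higher in medullary stroma-like cells. The summed smooth muscle markers lay at 451 to 657 CPM in cortical and 3656 to 4963 CPM in medullary stroma-like cells, with 2 and 4 of 5 markers in at least 10% of cells and none at 0. Their part in these differences was not tested.

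Within the stroma, Ntn1 differed between sub-classes. Cortical stroma-like cells, which surround the nephron-forming zone, stood at 62.0 and 87.0 CPM, and adventitial fibroblast-like cells at 69.6 and 86.4 CPM. Medullary stroma-like cells had 5.16 and 9.15 CPM and mesangial-like cells 2.67 and 0.583 CPM. The first 2 groups were high and the other 2 low in both libraries, with no overlap. Between them lay 40 smooth muscle-like cells (18.7 and 23.9 CPM, 9 UMIs) and 2 unnamed sub-clusters led by cell-cycle genes, with 23.4 and 11.3 CPM (Ube2c-led) and 36.3 and 25.2 CPM (2810417H13Rik-led). Cortical stroma-like cells were higher than medullary ones by 3.39 ± 0.35 (SE, adjusted p = 4.7e-09). Adventitial fibroblast-like minus cortical cells was 0.07 ± 0.27 (SE, adjusted p = 0.89), within their spread. The cortical sub-class held 59.0% of the 675 Ntn1 UMIs in all stroma-like, Tagln-led and Myh11-led cells, from 20.9% of those cells.

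Reln, a large matrix glycoprotein, was also stromal. Its level in stroma-like cells was 74.2 CPM in replicate 1 and 61.7 CPM in replicate 2, and every other class lay at or below 4.74 CPM in both libraries. Stroma-like cells exceeded nephron progenitor-like cells by 5.31 ± 0.23 (SE, adjusted p = 4.1e-14). Ureteric epithelium-like cells held 0 UMIs in replicate 1 and 1 in replicate 2, and the direct ratio of stroma-like to ureteric epithelium-like cells was 818 (95% interval 147 to 32325, counting error only). The fitted difference was 9.57 ± 0.50 (SE, adjusted p = 8.1e-13), 8.04 without replicate 1 and 10.46 without replicate 2. In endothelial-like cells replicate 1 held 45 UMIs, 28 of them in 1 cell, and replicate 2 held 2. The stromal excess over endothelial-like cells was 4.59 ± 0.26 (SE, adjusted p = 3.9e-12), and it was 7.39 without replicate 1 and 3.99 without replicate 2. The same 45 UMIs set the difference between endothelial-like and ureteric epithelium-like cells, which was 4.98 ± 1.11 (SE, adjusted p = 0.00063), 0.65 without replicate 1 and 6.47 without replicate 2. Nephron progenitor-like cells, with 83 Reln UMIs, exceeded ureteric epithelium-like cells by 4.26 ± 1.15 (SE, adjusted p = 0.0034), and by 3.05 without replicate 1. Neither of these 2 calls against the ureteric epithelium passed with thinned cells, at differences of 4.66 and 4.67 for nephron progenitor-like and endothelial-like cells (adjusted p = 0.14 for both), or at a mitochondrial limit of 5%, at 5.20 and 4.57 (adjusted p = 0.12 and 0.19).

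Of the named stromal sub-classes, cortical cells had the most Reln. Cortical stroma-like cells had 184 and 168 CPM, mesangial-like cells 26.7 and 14.0 CPM, and medullary stroma-like cells 5.16 CPM in replicate 1 and 0 UMIs in replicate 2. Adventitial fibroblast-like cells, which shared high Ntn1 with the cortex, had 0 UMIs in replicate 1 and 1 UMI in replicate 2. The direct ratio of cortical to medullary stroma-like cells was 76.2 (95% interval 34.9 to 208, counting error only), and the fitted difference was 6.26 ± 0.44 (SE, adjusted p = 3.3e-12), 10.06 without replicate 1 and 5.17 without replicate 2. Cortical stroma-like cells also exceeded mesangial-like cells, by 3.15 ± 0.22 (SE, adjusted p = 6.3e-12). Thinned to 4600 UMIs, 21.3% ± 2.13 (SD, n = 2) of stroma-like cells had a Reln UMI, against 0.595% ± 0.186 of nephron progenitor-like cells. Unnamed sub-clusters, chosen for mention here and below after their values were seen, also held Reln. Those led by cell-cycle genes had 77.6 and 53.7 CPM (269 cells led by Ube2c, 271 UMIs) and 103 and 85.2 CPM (230 cells led by 2810417H13Rik, 227 UMIs), of 1687 UMIs in the stromal clustering. A sub-cluster of 13 cells led by Ren1, the gene of renin, held 13 and 11 Reln UMIs (276 and 157 CPM), while 40 smooth muscle-like cells held none in either library, which allows up to 14.0 and 14.3 CPM.

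Ntn4, a netrin found in basement membranes, was nearly absent from the stroma. Stroma-like cells had 0.373 and 0.837 CPM. Endothelial-like cells had 32.5 and 22.9 CPM, podocyte-like cells 19.1 and 18.9 CPM, and proximal tubule-like cells 19.02 and 5.15 CPM, so the last class differed widely between libraries. The highest class was the Tagln-led cluster, with 95.5 and 80.2 CPM, while the Myh11-led cluster held 0 UMIs in replicate 1 and 19.4 CPM in replicate 2. Stroma-like cells were lower than endothelial-like cells by 5.60 on the log2 scale (-5.60 ± 0.38, SE, adjusted p = 3.0e-11). The value was -4.71 without replicate 1 and -6.30 without replicate 2. Nephron progenitor-like cells (42 UMIs) were also below endothelial-like cells (-5.04 ± 0.30, SE, adjusted p = 1.9e-12), and endothelial-like cells exceeded ureteric epithelium-like cells (24 UMIs) by 3.96 ± 0.36 (SE, adjusted p = 3.6e-09). Differences among the 3 types with little Ntn4 did not pass the threshold, with adjusted p = 0.061 for stroma-like and 0.14 for nephron progenitor-like against ureteric epithelium-like cells. Both passed, lower than the ureteric epithelium, at a mitochondrial limit of 20% (adjusted p = 0.0081 and 0.0078), without doublet removal (0.021 and 0.014) and with no filter on low counts (0.0024 and 0.022), and the first also by DESeq2 (0.029). When stroma-like, Tagln-led and Myh11-led cells were clustered again together, 215 of their 632 Ntn4 UMIs lay in an unnamed sub-cluster of 49 cells led by Krt8 and Spp1 (180 and 133 CPM).

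Endothelial-like cells were divided by markers into 169 arterial endothelium-like, 499 capillary plexus endothelium-like and 94 glomerular endothelium-like cells, while the other sub-clusters stayed unnamed. Of the plexus cells, 185 formed a sub-cluster led by histone and cell-cycle genes. These names rest on the summed level of the marker lists, since none of a list's own markers was among the 10 leading genes of its sub-cluster, which also holds for cortical stroma-like cells. The arterial leading genes included Acta2, and the summed smooth muscle markers lay at 424 to 815 CPM in arterial cells (2 of 5 in at least 10% of cells, 1 at 0) and at 9.86 to 10.03 CPM in plexus cells. Their part in the arterial differences was not tested. Between arterial and plexus cells 5 of the 10 genes passed the threshold, with Ntn4, Unc5b, Slit2 and Robo2 higher and Unc5c lower in arterial cells, against 20.3% of all genes tested (9.56% higher and 10.8% lower). Ntn4 stood at 122 and 80.0 CPM in arterial and at 55.5 and 61.5 CPM in glomerular endothelium-like cells. The plexus had 6.41 and 4.85 CPM, below both in each library. The arterial level exceeded that of the plexus by 4.09 ± 0.39 (SE, adjusted p = 2.7e-09). Arterial and glomerular cells differed by 0.91 ± 0.33 (SE, adjusted p = 0.062), which did not pass the threshold. Arterial cells held 41.4% of the 473 endothelial Ntn4 UMIs from 13.5% of the cells, and glomerular cells 35.7% from 7.53%. In the stroma, cortical cells had 0 Ntn4 UMIs in both libraries and medullary cells 2 and 6 UMIs, at least 5.61-fold higher when the cortical count is set to the 3 UMIs over both libraries that a count of 0 allows. That difference passed the threshold (adjusted p = 0.028), but not with thinned cells (adjusted p = 0.20) or at a finer sub-clustering (adjusted p = 0.18).

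**Figure D3:**
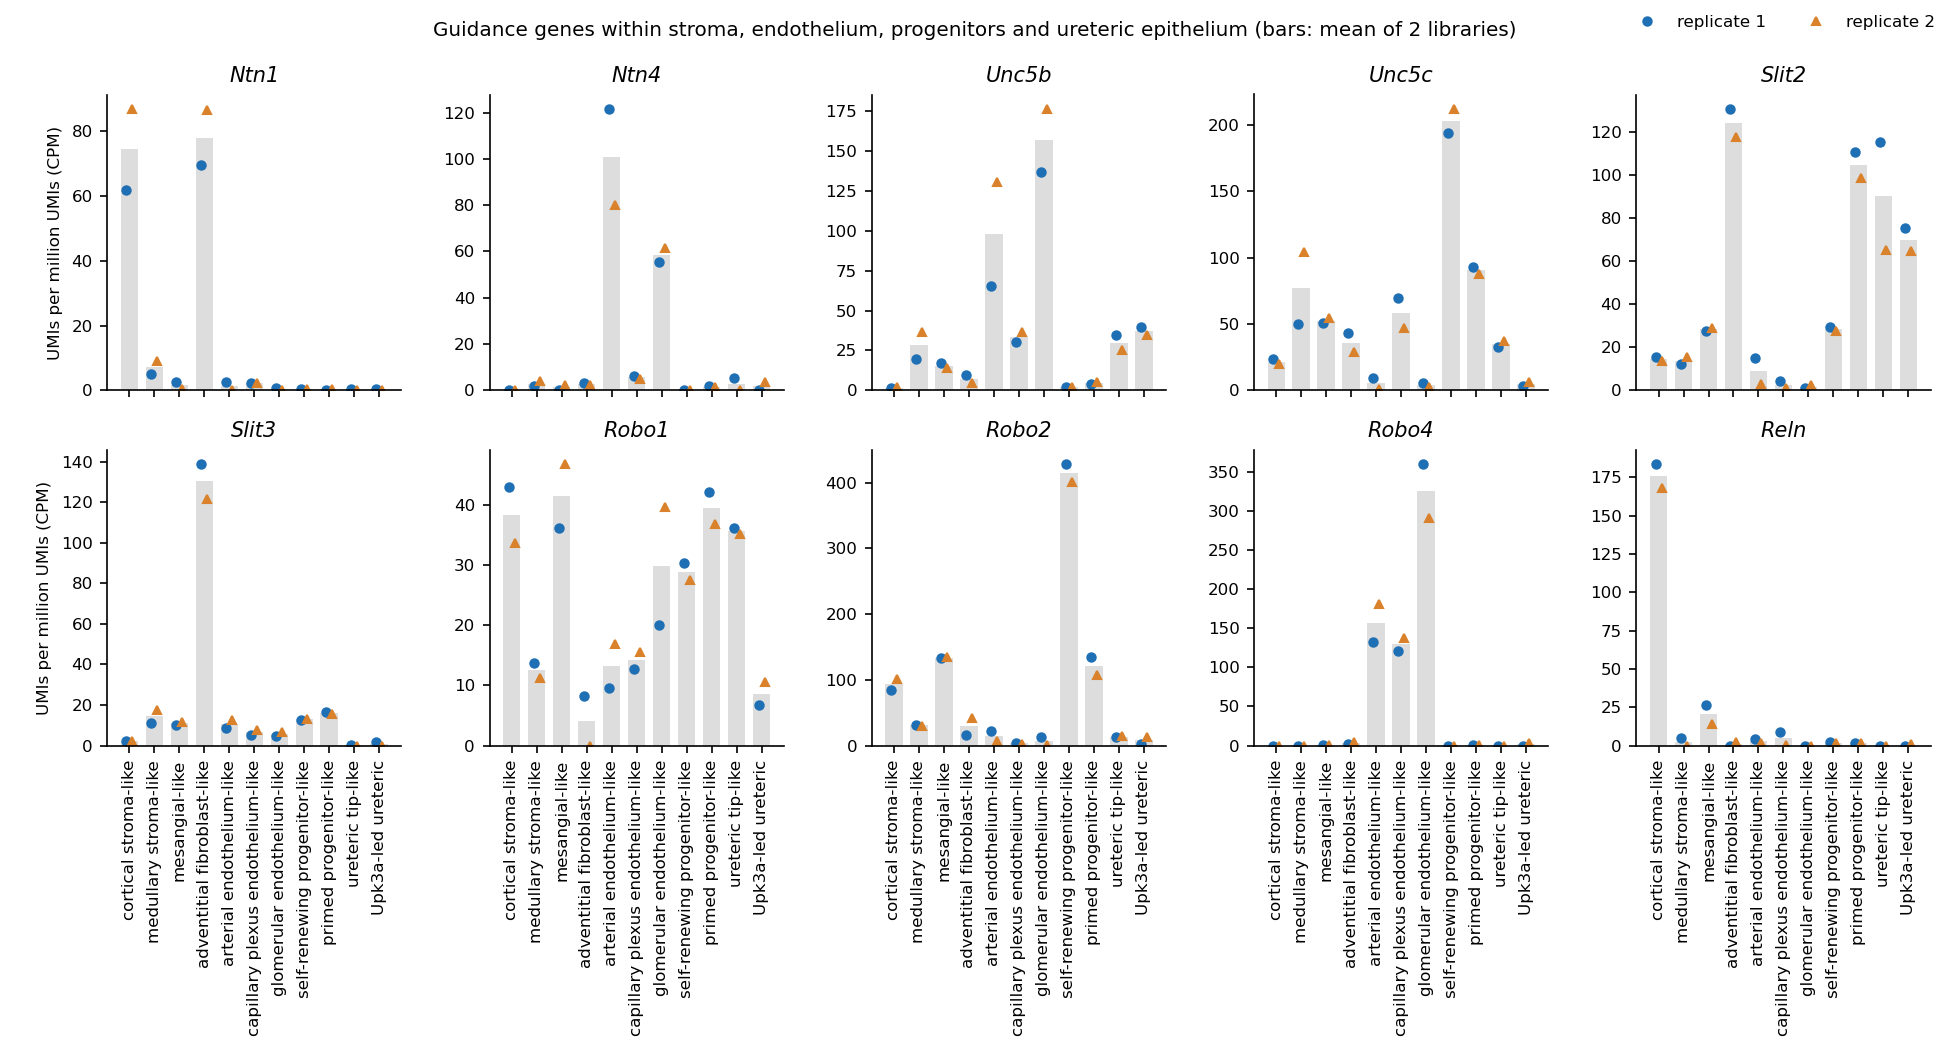
Levels of the 10 genes within stroma, endothelium, nephron progenitors and ureteric epithelium. The y axis is CPM within the sub-class, from 0 and on a scale of its own in each panel, grey bars are means, and circles and triangles are replicates 1 and 2. Ntn1 was high in 2 stromal sub-classes, Reln in 1, Ntn4 in 2 endothelial sub-classes, and Robo2 fell from 415 to 121 CPM from self-renewing to primed progenitor-like cells while Slit2 rose from 28.6 to 105 CPM.

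Slit2 was highest in the ureteric epithelium and was also found in nephron progenitors and early nephrons. Ureteric epithelium-like cells stood at 131 and 109 CPM, nephron progenitor-like cells at 60.8 and 50.6 CPM, early nephron-like cells at 49.5 and 44.1 CPM and stroma-like cells at 23.9 and 21.0 CPM. The Tagln-led cluster had 103 and 61.0 CPM. Cells outside the named classes held 2036 of the 10002 Slit2 UMIs, where ureteric epithelium-like cells held 1456, and their levels are given at the end. Proximal tubule-like (9.91 and 12.2 CPM), podocyte-like (3.21 and 7.19 CPM) and endothelial-like cells (4.28 and 1.87 CPM) lay below the stroma. The 4 main types did not overlap between libraries. Ureteric epithelium-like cells exceeded nephron progenitor-like cells by 0.97 on the log2 scale (nephron progenitor-like minus ureteric epithelium-like, -0.97 ± 0.14, SE, adjusted p = 4.3e-06), and stroma-like cells were below nephron progenitor-like cells (-1.33 ± 0.15, SE, adjusted p = 1.8e-07). Stroma-like cells were above endothelial-like cells by 2.75 ± 0.26 (SE, adjusted p = 8.4e-09), and by 3.44 without replicate 1, since endothelial-like cells held 43 Slit2 UMIs in replicate 1 and 12 in replicate 2. Thinned to 4600 UMIs, 37.7% ± 0.618 (SD, n = 2) of ureteric epithelium-like and 19.4% ± 4.05 of nephron progenitor-like cells had a Slit2 UMI.

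The nephron progenitor-like cells held 1106 self-renewing progenitor-like and 607 primed progenitor-like cells, the latter showing the first markers of differentiation. The other 529 cells, led by cell-cycle genes, stayed unnamed and entered no test. Here 4 of the 10 genes passed the threshold, with Robo2 and Unc5c higher and Slit2 and Robo1 lower in self-renewing cells, against 14.6% of all genes tested (6.34% higher and 8.25% lower). Slit2 had 29.5 and 27.7 CPM in self-renewing and 111 and 98.8 CPM in primed progenitor-like cells. Robo2, its receptor, ran the other way, with 429 and 401 CPM in self-renewing and 134 and 108 CPM in primed cells. Neither gene overlapped between the 2 states, and the 529 unnamed cells lay between them for both, with 62.9 and 52.6 CPM of Slit2 and 268 and 249.6 CPM of Robo2. The differences, self-renewing minus primed, were -1.96 ± 0.15 for Slit2 (SE, adjusted p = 2.2e-11) and 1.68 ± 0.15 for Robo2 (SE, adjusted p = 4.9e-10). The summed early nephron markers were 76.2 to 98.3 CPM in self-renewing and 696 to 777 CPM in primed cells, and some of them served to name the primed cells.

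Slit2 in the other compartments varied by sub-class. Adventitial fibroblast-like cells had 131 and 117 CPM, above the cortical (15.7 and 13.5 CPM), medullary (12.05 and 15.5 CPM) and mesangial-like cells (27.5 and 29.2 CPM). In the ureteric epithelium, 106 ureteric tip-like cells had 115 and 65.0 CPM. A sub-cluster of 83 cells carried the collecting duct markers but was led by Upk3a and Psca, with none of its own markers among its 10 leading genes, and is called the Upk3a-led sub-cluster. It had 75.2 and 64.6 CPM of Slit2, and the 2 groups differed by 0.32 ± 0.19 (SE, adjusted p = 0.18), within their spread. The other ureteric cells stayed unnamed and entered no test, and both of their sub-clusters had more Slit2 than these groups in each library. They were 86 cells led by Thbs1, with 190 and 149 CPM, and 22 cells led by Hoxa10, with 256 and 239 CPM. Between arterial and plexus endothelium Slit2 passed the threshold (1.78 ± 0.60, SE, adjusted p = 0.032) on 17 and 2 arterial UMIs, 11 of them in 1 cell. Without the replicate block, which takes up differences between libraries, it was 1.79 with an adjusted p of 0.053, and without cells of over 50000 UMIs 0.64 with an adjusted p of 0.63.

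Slit3 stood at low levels in early nephrons, proximal tubule, nephron progenitors and stroma. Among the named stromal sub-classes it was highest in adventitial fibroblast-like cells. Early nephron-like cells had 32.3 and 36.0 CPM, proximal tubule-like cells 20.6 and 27.5 CPM, nephron progenitor-like cells 13.9 and 13.3 CPM and stroma-like cells 12.2 CPM in both libraries. The Tagln-led cluster had 38.5 and 26.6 CPM. Podocyte-like cells had only 0.944 and 2.25 CPM, below the 5.08 and 7.94 CPM of endothelial-like cells. The difference of stroma-like minus nephron progenitor-like cells was -0.19 ± 0.17 (SE, adjusted p = 0.37), within their spread. Ureteric epithelium-like cells held 5 UMIs in replicate 1 and 0 in replicate 2. The stroma-like level was 4.93 ± 0.47 higher (SE, adjusted p = 2.0e-08), 7.87 without replicate 1 and 4.07 without replicate 2, and the direct ratio was 29.04 (95% interval 12.3 to 90.1, counting error only).

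Among stromal sub-classes, adventitial fibroblast-like cells stood at 139 and 122 CPM of Slit3, and the next sub-class of all 11 compared, primed progenitor-like cells, at 16.6 and 15.5 CPM. The step between these 2 was 2.95 ± 0.20 (SE, adjusted p = 2.2e-13). The adventitial fibroblast-like cells made up 4.28% of the cells of the stromal clustering and held 25% of their 556 Slit3 UMIs. Of the unnamed sub-clusters, the 49 cells led by Krt8 and Spp1 held 71 of these UMIs (55.6 and 55.8 CPM). The 13 Ren1-led cells, with 9 and 18 UMIs, stood above the fibroblast-like cells in both libraries at 191 and 256 CPM, and were not tested. Medullary stroma-like cells had 11.2 and 17.6 CPM and cortical ones 2.33 and 2.05 CPM (cortical minus medullary, -2.66 ± 0.44, SE, adjusted p = 2.4e-05), with -1.87 and an adjusted p of 0.071 at the finer sub-clustering.

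Of the receptors, Unc5b, which restrains sprouting in blood vessels, was highest in endothelial-like cells. They stood at 70.1 and 77.4 CPM, the Tagln-led cluster at 38.9 and 51.0 CPM and ureteric epithelium-like cells at 35.4 and 33.6 CPM. Podocyte-like cells had 23.8 and 32.3 CPM, stroma-like cells 10.5 and 10.8 CPM and nephron progenitor-like cells 4.14 and 3.77 CPM. All 6 comparisons between the 4 main types passed the threshold. Endothelial-like cells exceeded ureteric epithelium-like cells by 1.23 ± 0.12 (SE, adjusted p = 1.9e-08). Stroma-like cells exceeded nephron progenitor-like cells by 1.40 ± 0.17 (SE, adjusted p = 2.7e-07), but by only 0.21 with an adjusted p of 0.73 when the mitochondrial limit was 5%, which kept 4703 cells. Within the endothelium, glomerular cells had 137 and 176 CPM, arterial cells 65.7 and 131 CPM and plexus cells 30.1 and 36.6 CPM. Glomerular cells exceeded arterial cells by 0.65 ± 0.20 (SE, adjusted p = 0.023), although replicate 2 of the arterial cells lay close to replicate 1 of the glomerular cells. Arterial cells exceeded the plexus by 1.42 ± 0.22 (SE, adjusted p = 9.5e-06). In the stroma, medullary cells (19.8 and 36.6 CPM) exceeded cortical cells (1.33 and 2.05 CPM), with a cortical minus medullary difference of -4.02 ± 0.48 (SE, adjusted p = 1.1e-07).

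Unc5c, the second UNC5 receptor of the set, had a different distribution. Podocyte-like cells stood at 290 and 274 CPM, the Tagln-led cluster at 199 and 200.3 CPM and nephron progenitor-like cells at 144 and 163 CPM. Stroma-like cells had 39.1 and 46.2 CPM, endothelial-like cells 38.1 and 32.4 CPM and ureteric epithelium-like cells 16.8 and 16.1 CPM. Nephron progenitor-like cells were above stroma-like cells (stroma-like minus nephron progenitor-like, -1.88 ± 0.14, SE, adjusted p = 1.1e-10), while stroma-like and endothelial-like cells differed by 0.23 ± 0.15 (SE, adjusted p = 0.22), within their spread, but by 0.55 (adjusted p = 0.024) at a mitochondrial limit of 5%. At equal depth, 44.9% ± 4.33 (SD, n = 2) of nephron progenitor-like, 15.4% ± 0.874 of stroma-like and 4.48% ± 0.788 of ureteric epithelium-like cells had a UMI. Self-renewing progenitor-like cells had 194 and 213 CPM and primed ones 93.0 and 87.9 CPM, a difference of 1.07 ± 0.15 (SE, adjusted p = 3.0e-06).

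Of the 3 named endothelial sub-classes, Unc5c was highest in the plexus, the one with the least Ntn4 and Unc5b. Plexus cells had 69.8 and 46.9 CPM, arterial cells 9.63 and 1.40 CPM (11 UMIs and 1 UMI) and glomerular cells 5.37 and 2.74 CPM. The plexus held 72.5% of the 590 endothelial Unc5c UMIs from 40.0% of the cells. An unnamed sub-cluster of 145 cells led by Scin and Aqp1 had 52.0 and 50.5 CPM, and one of 258 cells led by Chchd10 and Esm1 15.6 and 16.7 CPM. Arterial minus plexus was -3.25 ± 0.44 (SE, adjusted p = 9.7e-07), -4.98 without replicate 1 and -2.90 without replicate 2. In the stroma, medullary cells had 49.9 and 104 CPM and cortical cells 23.7 and 19.7 CPM. Cortical minus medullary was -1.80 ± 0.26 (SE, adjusted p = 3.2e-06), with -2.35 without replicate 1 and -1.01 without replicate 2. In the ureteric epithelium, tip-like cells had 32.8 and 37.0 CPM and the Upk3a-led sub-cluster 3.66 and 6.01 CPM. Unc5c and Robo1 were the 2 of the 10 genes that passed the threshold between these groups, both higher in tip-like cells, against 39.6% of all genes tested (18.1% higher and 21.6% lower). The Unc5c difference was 2.82 ± 0.45 (SE, adjusted p = 7.5e-06), and 1.56 with an adjusted p of 0.41 with thinned cells.

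Robo1 was the most evenly spread of the 3 roundabout receptors. Early nephron-like cells had 52.6 and 58.4 CPM, stroma-like cells 36.5 and 34.0 CPM, nephron progenitor-like cells 35.0 and 30.8 CPM, ureteric epithelium-like cells 21.2 and 19.9 CPM and endothelial-like cells 15.4 and 21.0 CPM. Early nephron-like cells were above stroma-like cells by 0.57 ± 0.11 (SE, adjusted p = 8.7e-05). Stroma-like and nephron progenitor-like cells differed by 0.08 ± 0.11 (SE, adjusted p = 0.58) and endothelial-like and ureteric epithelium-like cells by -0.06 ± 0.15 (SE, adjusted p = 0.76), both within their spread. Cortical stroma-like cells had 43.0 and 33.7 CPM against 13.8 and 11.3 CPM in medullary ones (1.69 ± 0.31, SE, adjusted p = 8.6e-05). Ureteric tip-like cells had 36.1 and 35.2 CPM against 6.79 and 10.5 CPM in the Upk3a-led sub-cluster (2.03 ± 0.33, SE, adjusted p = 9.4e-06), with 1.38 and an adjusted p of 0.26 with thinned cells, and 1.32 and an adjusted p of 0.053 without cells of over 50000 UMIs. In nephron progenitors Robo1 moved as Slit2 did, with 30.3 and 27.6 CPM in self-renewing and 42.2 and 36.8 CPM in primed cells. That difference was -0.55 ± 0.16 (SE, adjusted p = 0.014). It did not pass without the replicate block (-0.55, adjusted p = 0.082), by DESeq2's Wald test (-0.56, adjusted p = 0.23) or at a coarser sub-clustering (-0.20, adjusted p = 0.41).

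Robo2 was highest in podocyte-like and nephron progenitor-like cells. Podocyte-like cells stood at 926 and 931 CPM, nephron progenitor-like cells at 298 and 290 CPM (290.5 in replicate 2), the Tagln-led cluster at 212 and 303 CPM and stroma-like cells at 89.9 and 91.2 CPM. Early nephron-like cells had 22.4 and 18.5 CPM. They pooled several clusters, among them 386 cells led by Sim2 and 561 cells led by Osr2, and are not a single stage before podocytes. Ureteric epithelium-like cells had 7.26 and 9.14 CPM and endothelial-like cells 8.47 and 3.12 CPM. Podocyte-like cells exceeded nephron progenitor-like cells by 1.498 ± 0.15 (SE, adjusted p = 2.1e-08), and nephron progenitor-like cells exceeded stroma-like cells (stroma-like minus nephron progenitor-like, -1.73 ± 0.16, SE, adjusted p = 6.5e-09). Along the order self-renewing, primed and early nephron-like, the mean level was 415, 121 and 20.5 CPM, and no library of one group overlapped the next. At equal depth 63.2% ± 1.13 (SD, n = 2) of nephron progenitor-like and 31.2% ± 0.973 of stroma-like cells had a UMI, against 1.08% ± 0.513 of endothelial-like cells and 1.60% ± 1.43 of erythroid-like cells, of which 230 of 478 and 169 of 358 were deep enough to enter. The endothelial share did not exceed the erythroid one and is not read as expression. By level, endothelial-like cells had 5.79 CPM on average and erythroid-like cells 3.57 CPM. The fit, which scales classes by TMM as CPM does not, put the endothelial-like cells below the erythroid-like ones (-3.20 ± 0.82, SE, adjusted p = 0.006). In the stroma, Robo2 stood at 133 and 135 CPM in mesangial-like, 85.0 and 101 CPM in cortical and 31.8 and 30.3 CPM in medullary cells. Cortical cells exceeded medullary cells by 1.63 ± 0.26 (SE, adjusted p = 1.4e-05), and by 0.74 with an adjusted p of 0.098 at the finer sub-clustering.

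Robo2 in the endothelium depended on few cells. Endothelial-like cells held 85 UMIs in replicate 1 and 20 in replicate 2, and 18 of the former lay in 1 cell. The stromal excess over endothelial-like cells was 3.82 ± 0.24 (SE, adjusted p = 7.8e-12), 4.83 without replicate 1 and 3.36 without replicate 2. The excess of nephron progenitor-like over endothelial-like cells was 5.54 ± 0.23 (SE, adjusted p = 3.7e-15), and 6.53 without replicate 1. Between arterial and plexus cells Robo2 passed the threshold (2.24 ± 0.59, SE, adjusted p = 0.0054) on 25 and 5 arterial UMIs, and the value was 1.15 without replicate 1 and -0.51 when doublets were kept. With thinned cells it was 1.99 with an adjusted p of 0.25. The summed podocyte markers lay at 594 to 654 CPM in arterial cells (2 of 6 in at least 10% of cells) and at 349.9 to 374 CPM in plexus cells (3 of 6), with none at 0. Their part in this difference was not tested.

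Robo4, the endothelial member of the roundabout family, stood far higher in endothelial-like cells than in the other 9 classes, with 191 and 176 CPM. No other class exceeded 2.99 CPM in either library. Endothelial-like cells held 3044 Robo4 UMIs in all, stroma-like cells 13, nephron progenitor-like cells 9 and ureteric epithelium-like cells 6. The direct ratio of endothelial-like to ureteric epithelium-like cells was 368 (95% interval 169 to 1002, counting error only), and the fitted difference was 8.62 ± 0.30 (SE, adjusted p = 2.3e-16), 7.84 without replicate 1 and 9.25 without replicate 2. The fitted differences from stroma-like and nephron progenitor-like cells were -8.42 ± 0.26 (SE, adjusted p = 3.5e-17) and -9.90 ± 0.26 (SE, adjusted p = 1.3e-18), endothelial-like cells being the second type in both. Glomerular endothelium-like cells had 361 and 291 CPM, arterial cells 133 and 181 CPM and plexus cells 121 and 138 CPM. Glomerular cells exceeded arterial cells by 1.05 ± 0.17 (SE, adjusted p = 3.6e-05), and arterial and plexus cells differed by 0.19 ± 0.17 (SE, adjusted p = 0.53), within their spread, but by 0.72 (adjusted p = 0.00062) without doublet removal. After thinning to 4600 UMIs, 48.0% ± 1.88 (SD, n = 2) of endothelial-like cells had a Robo4 UMI.

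**Figure D4:**
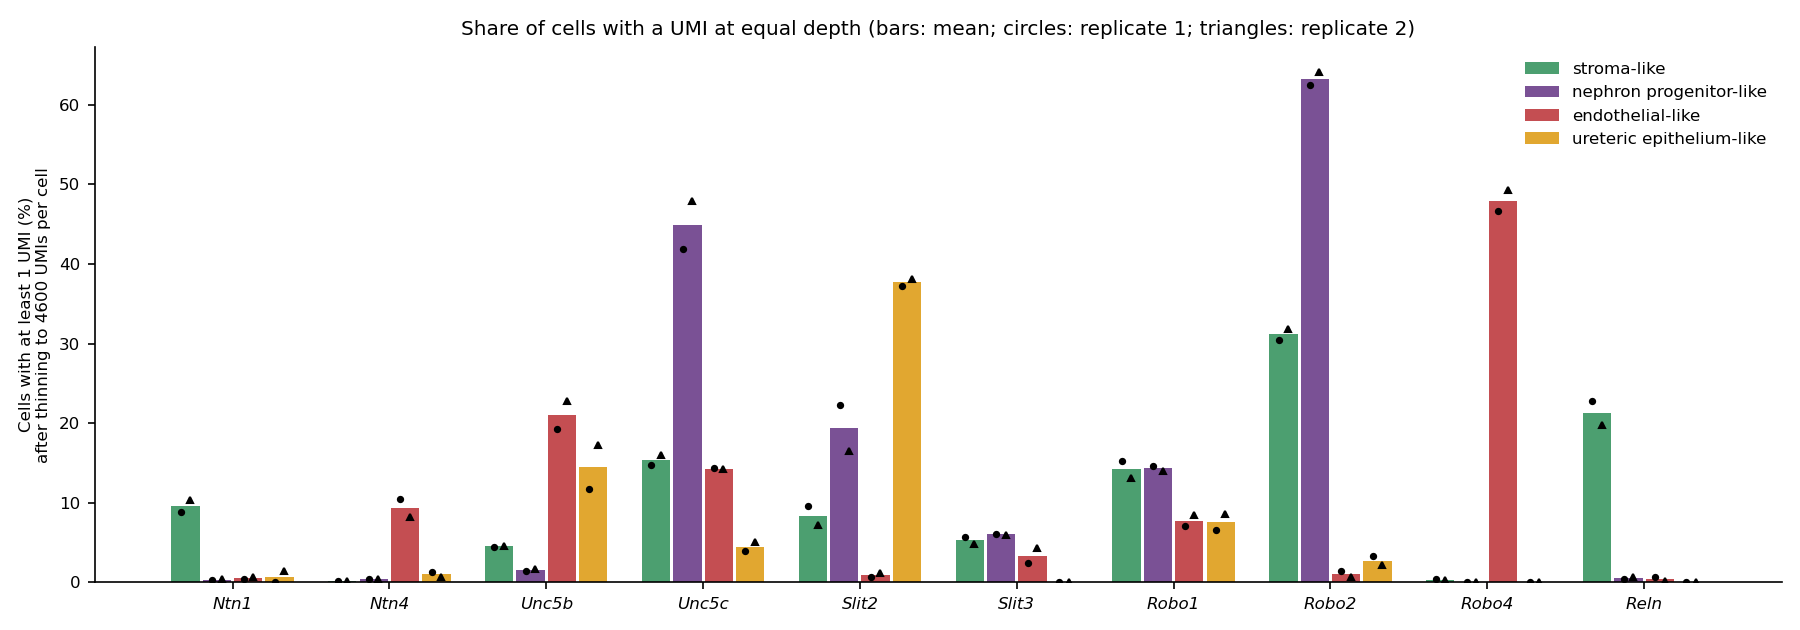
Share of cells with at least 1 UMI of each gene in the 4 main cell types after cells were thinned to 4600 UMIs, leaving out shallower cells. Bars are means of the 2 libraries on an axis from 0, and circles and triangles are replicates 1 and 2. Robo2 in nephron progenitor-like cells (63.2%) and Robo4 in endothelial-like cells (48.0%) were the most often seen, and Ntn1 did not exceed 10.4% in any library.

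The level that free RNA could give was read from cells unlikely to express the genes. Barcodes with under 100 UMIs, which hold mostly free RNA, had 94.2 ± 8.29 CPM of Robo2 and 41.5 ± 1.96 CPM of Unc5c (SD, n = 2), the highest of the 10 genes. Immune-like cells had 0.675 ± 0.110 CPM of Robo2 and 1.49 ± 2.11 CPM of Unc5c, and held 0 UMIs of Reln. Erythroid-like cells had 3.57 ± 2.54 CPM of Robo2, 1.33 ± 1.04 CPM of Unc5c and 4.02 ± 1.02 CPM of Reln. These CPM lack the TMM scaling of the fit, which placed erythroid-like cells higher relative to endothelial-like cells for Robo2. Erythroid-like cells, with median depths of 4370.5 and 4461 UMIs against 9727.5 and 9256 in stroma-like cells, had a UMI of a given member in 0% to 2.09% of cells per library, where a count of 0 allows up to 0.628% in replicate 1 and 0.838% in replicate 2. Free RNA and cells of other types in 1 droplet were not modelled further.

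The rest of the pathway was followed with a list of 23 netrin, Slit-Robo and reelin genes, of which 21 were in the files and 18 passed the filter on low counts. Between stroma-like and nephron progenitor-like cells 5 were higher and 9 lower. Stroma-like against endothelial-like cells gave 5 higher and 5 lower, and against ureteric epithelium-like cells 5 higher and 9 lower. Nephron progenitor-like cells had 7 higher and 6 lower than endothelial-like cells, and 7 higher and 5 lower than ureteric epithelium-like cells. Endothelial-like against ureteric epithelium-like cells gave 6 higher and 8 lower. In the same order 14, 10, 14, 13, 12 and 14 of the 18 passed, beside 57.7%, 52.5%, 58.9%, 63.7%, 57.4% and 59% of all genes tested.

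Named by size of change, Ntng1, a membrane-anchored netrin relative, was stromal like Ntn1, with a mean of 44.8 CPM in stroma-like cells, where nephron progenitors had 1.61 CPM (4.77 ± 0.32, SE, adjusted p = 1.0e-10). Slit1, the third Slit ligand, had 6.29 CPM in nephron progenitor-like and 0.168 CPM (4 UMIs) in stroma-like cells (-5.18 ± 0.47, SE, adjusted p = 6.9e-09), with -4.33 without replicate 1. Dab1, the adaptor of reelin signalling, had 0.476 CPM in stroma-like and 0.398 CPM in endothelial-like cells. Nephron progenitor-like cells had 12.5 CPM (-4.66 ± 0.30, SE, adjusted p = 1.4e-11) and ureteric epithelium-like cells 21.9 CPM (-5.34 ± 0.31, SE, adjusted p = 1.7e-12). The reelin receptor Vldlr stood at 206 CPM in the ureteric epithelium, while nephron progenitor-like cells had 3.88 CPM (nephron progenitor-like minus ureteric epithelium-like, -5.57 ± 0.16, SE, adjusted p = 1.4e-17). Flrt3, a membrane protein that can bind UNC5 receptors, had 92.9 CPM in endothelial-like and 4.72 CPM in stroma-like cells (-4.32 ± 0.17, SE, adjusted p = 1.4e-15). Srgap3, a GTPase regulator downstream of ROBO receptors, had 47.4 CPM in ureteric epithelium-like and 0.816 CPM in endothelial-like cells (endothelial-like minus ureteric epithelium-like, -5.74 ± 0.25, SE, adjusted p = 8.6e-15). Robo3, Dscam and Draxin had 0 UMIs in at least 1 of the types compared, and their folds are lower bounds from 3 UMIs over both libraries. Robo3, a roundabout receptor, was at least 36.7-fold higher in endothelial-like than in stroma-like cells. Dscam, which can act as a netrin receptor, was at least 31.0-fold higher in ureteric epithelium-like than in stroma-like cells and at least 21.2-fold higher than in endothelial-like cells. Draxin, a netrin antagonist, was at least 32.8-fold higher in nephron progenitor-like than in ureteric epithelium-like cells.

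**Figure D5:**
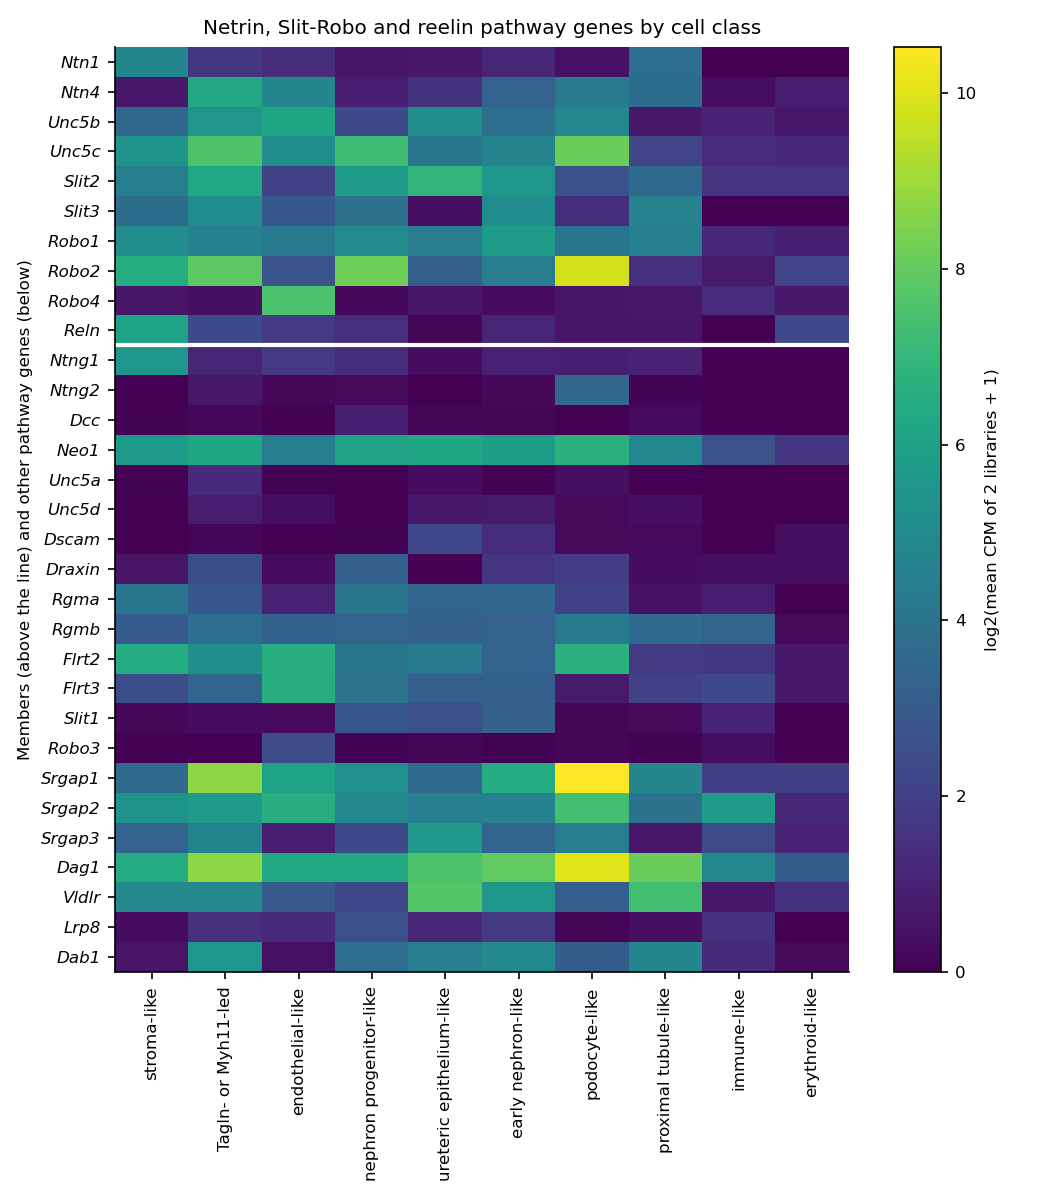
Levels of the 10 genes (above the white line) and 21 other pathway genes (below it) in 10 cell classes. Colour is log2(mean CPM of the 2 libraries + 1), rows are genes and columns classes, and colours compare classes within a row. Ntng1 shared its highest class with Ntn1 and Reln, and Robo3 shared its highest class with Robo4.

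Within the 4 types, 15 pathway genes passed the filter. Cortical against medullary stroma-like cells gave 0 higher and 3 lower, where 24.3% of all genes tested passed. Arterial against plexus endothelium gave 3 higher and 2 lower, beside 20.3% of all genes. Self-renewing against primed progenitors gave 3 higher and 5 lower, beside 14.6%, and ureteric tip-like cells against the Upk3a-led sub-cluster 5 higher and 4 lower, beside 39.6%.

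For each gene, the 2 genes with the most similar profile were found among 11154 genes by Pearson's r of log2(mean CPM + 1) over the 10 classes, which share the same 2 libraries. The profile of Robo4 was closest to those of Clec1a (0.998) and Sox18 (0.996), both highest in endothelial-like cells. Robo2 was closest to Foxd2 (0.98) and Fxyd6 (0.96), Robo1 to Farp1 (0.97) and Snrpn (0.97), Unc5c to Nbl1 (0.96) and Sncaip (0.96), and Unc5b to Crip2 (0.97) and Efnb2 (0.95). Slit2 was closest to Ccdc136 (0.97) and Ikzf4 (0.96), and Slit3 to Fgfr3 (0.90) and Bmp4 (0.88). Ntn1 was closest to Agtr1a (0.95) and Fibin (0.93), Ntn4 to Maff (0.91) and Sh3tc2 (0.91), and Reln to Pdgfra (0.95) and Gria4 (0.94). With 10 points, these values describe likeness and nothing more.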

How the data were processed

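The authors deposited raw unfiltered 10x matrices of UMI counts per gene and barcode, made with Cell Ranger 6.0.1 on mm10 per the submitters' processing notes, while the matrix headers name software version 4. The annotation version is not given in the sources used here. The 10 genes, the pathway list and the marker lists were chosen with earlier results of these data known.

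Barcodes with at least 2000 UMIs and at most 10% mitochondrial UMIs were kept, and Scrublet doublets (expected rate 6%) were removed, 4.98% and 4.12% of barcodes. Cells were scaled to 10000 UMIs and clustered (2000 variable genes, 30 principal components, 15 neighbours, Leiden resolution 1) with scanpy 1.11.5, leaving out the 10 genes, the pathway list and 6 sex-linked genes. A cluster took the class whose listed markers had the highest mean scaled level if that level was at least 0.3 and at least 3 markers were in 10% of cells. It stayed unnamed if it held under 20 cells or if another list had more genes among its 10 leading genes. Shallow clusters with none of their own markers among these also stayed unnamed. Sub-clusters (resolution 0.5, without cell-cycle, histone and globin genes) needed a level of 0.2. The last 2 choices were made after the sub-clusters but not the genes' values were seen. All 10 genes are described. Pathway genes were named if among the 3 largest changes past the threshold in a comparison of types.

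Counts were summed per library and class and tested with edgeR 4.0.16 (quasi-likelihood test, TMM, filterByExpr, library as a block), with Benjamini-Hochberg adjustment over all 15214 genes (13289 for sub-classes). The block follows from the design, since all classes of 1 library come from the same sample. On simulated data for stroma-like against nephron progenitor-like cells, over 14914 genes, 172 of 196 tested genes changed 4-fold were recovered, with 8 false calls. The simulation changed 200 genes, equally up and down, and used 1 fixed spread. It therefore does not test a comparison in which 57.7% of genes pass. Intervals are exact Poisson or binomial at 95% and cover counting error only. Alternatives covered cell filters, doublets, depth, normalization, DESeq2 1.42.0, gene filter, block, clustering, a marker gate per cell and single libraries. RefSeq coordinates were matched by symbol for all 10 genes.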

Additional observations from a re-analysis of the deposited data

Results flagged for a closer look

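A cluster of 411 cells entered no comparison, because its markers were split between loop of Henle and distal tubule (it was led by Slc12a1 and S100g), and 9 of the 10 genes were above the level that a count of 0 allows there. Slit2 stood out with a mean of 118 CPM (125 and 110.2 CPM in the 2 libraries), close to the 120.4 CPM of ureteric epithelium-like cells. Robo2 had 45.4 CPM, Robo1 22.97 CPM, Unc5b 13.3 CPM and Ntn1 9.97 CPM. Unc5c (3.28 CPM), Slit3 (1.87 CPM), Reln (1.66 CPM) and Ntn4 (1.03 CPM) were low. These levels were not compared with other classes by a test.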

How the results depend on the processing

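Of 1230 tested differences of single genes under the alternatives, 1170 kept their side of the threshold, and their direction where they had passed, 25 no longer passed, 32 newly passed and 3 reversed. The reversals were Ntn1 between nephron progenitor-like and endothelial-like cells at a mitochondrial limit of 5% (0.090, adjusted p = 0.95), Ntn1 between endothelial-like and ureteric epithelium-like cells with thinned cells (-0.093, adjusted p = 0.98), and Robo2 between arterial and plexus endothelium without doublet removal (-0.51, adjusted p = 0.66). Thinning cells to 4600 UMIs moved 18 of 40 levels of the 10 genes in the 4 types by more than the spread between libraries, and thinning to 11900 UMIs in place of 4600 moved 37 of 40 shares of cells with a UMI. Of 123 counts of the 10 genes past the threshold, 116 stayed within 1.5 times. The exceptions were endothelial-like against ureteric epithelium-like cells, 5 at the 5% limit, cortical against medullary stroma, 5 at sub-cluster resolution 1, arterial against plexus endothelium, 3 with thinned cells, and self-renewing against primed progenitors, 7 with no filter on low counts. Tip-like cells against the Upk3a-led sub-cluster gave 0 with thinned cells by edgeR (0 also at an unadjusted p under 0.05), and 4 without doublet removal and at sub-cluster resolution 1. With all UMIs, DESeq2 gave 2 by adjusted and 3 by unadjusted p for these groups. Without the replicate block the counts of the 4 sub-class comparisons were 8, 4, 3 and 2, and the block changed only Slit2 (arterial against plexus, adjusted p = 0.053) and Robo1 (self-renewing against primed, adjusted p = 0.082). Leaving out a library leaves no residual degrees of freedom, so its 200 differences have no test, and 0 of those that had passed changed sign. Keeping cell-cycle genes in the sub-clustering, an alternative chosen after seeing the data, gave no value for arterial against plexus endothelium. With 2 libraries and few UMIs of Ntn1, Ntn4, Slit3 and Reln outside their main classes, small differences there were not detectable.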
